A study of Mus musculus with 19 samples.

Results

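The let-7 guides are 9 mature microRNA (miRNA) names, let-7a, let-7b, let-7c, let-7d, let-7e, let-7f, let-7g, let-7i and miR-98, among the 528 names of the deposited table. The rule takes the family names without a star and uses no measured value, although the family was picked with earlier results of these data known. All 9 passed the filter on low values that left 522 names for testing. The libraries hold small RNAs that came down with Ago2, the protein that carries miRNA guides, from mouse brain at postnatal day 56. Purkinje cells (n = 3 libraries, each from 3 pooled tissues) and whole Cerebellum (n = 3, 1 tissue each) had a C57BL/6 & black swiss background. PV cells (n = 2), SST cells (n = 2) and Gad2 cells (n = 3) came from the neocortex of mice of a C57BL/6 & 129 background, with 4 pooled tissues in each library. Camk2a cells (n = 3) and whole Neocortex (n = 3), with 1 tissue in each library, had a C57BL/6 & BALB/c background. The cell types were precipitated with an anti-myc antibody, which takes tagged Ago2, and the whole tissues with an anti-Ago2 antibody. The labels give cell type names and not the alleles or promoters that placed the tag. Antibody and cell type therefore change together in every comparison of cells with their tissue, and for Purkinje and Gad2 so does the number of pooled tissues, and these cannot be told apart. The strain background also changes with the group between Gad2 and Neocortex, Gad2 and Camk2a, Purkinje and Gad2, and Cerebellum and Neocortex.

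A miRNA hairpin gives a guide strand, which Ago2 keeps, and a star strand, which is mostly lost. The guide finds target mRNAs mainly through its seed, the bases near its 5′ end, so guides that share a seed share many predicted targets. The let-7 family is known for its part in developmental timing in nematodes, is held low in stem cells, where LIN28 proteins block the maturation of its hairpins, and is abundant in the adult brain. Purkinje cells are the GABAergic output neurons of the cerebellar cortex. In the neocortex, Camk2a is known from excitatory neurons and Gad2 from neurons that make GABA. PV stands for parvalbumin and SST for somatostatin, which different interneurons of the GABAergic kind express.

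The mature sequences are shown because they define the family and show how little separates its members. All 9 names matched RefSeq entries (GRCm38.p6), each 22 bases long, and capitals mark the seed, bases 2 to 8.
let-7a: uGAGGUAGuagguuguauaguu
let-7b: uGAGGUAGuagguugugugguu
let-7c: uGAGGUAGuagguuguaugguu
let-7d: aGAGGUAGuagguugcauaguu
let-7e: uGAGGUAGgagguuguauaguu
let-7f: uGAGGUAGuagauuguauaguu
let-7g: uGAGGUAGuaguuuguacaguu
let-7i: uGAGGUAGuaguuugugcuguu
miR-98: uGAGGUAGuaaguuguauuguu
One seed, GAGGUAG, was common to all 9. Of the other mature mouse names in the table, 2 carried the same seed, let-7k and miR-1961, and neither was a name in the deposited file. Counting from 1 at the 5′ end, with the base of the guide named first, let-7a and let-7c differ only by A19G, let-7a and let-7e only by U9G, let-7a and let-7f only by G12A, and let-7b and let-7c only by G17A. These 4 were the pairs that differ at 1 base, and the 36 pairs differ at 1 to 6 bases. let-7g and let-7i, the members with the narrowest and the widest range of levels below, differ by A17G and A19U. The mismatches allowed when reads were assigned are not given in the sources used here, so reads could be split between the closest members.

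The hairpins lie at several places of the genome, given here from the GENCODE M21 annotation of GRCm38, a later build than the mm9 named in the submitters' processing notes. Mirlet7i stands alone on chromosome 10 (chr10:122985640-122985724, minus strand), in an exon of D630033A02Rik. Mir98 (chrX:151913214-151913321) and Mirlet7f-2 lie 785 bases apart in an intron of Huwe1, which encodes a ubiquitin ligase. Mirlet7g (chr9:106178840-106178927) lies in an intron of Wdr82. Mirlet7b and Mirlet7c-2 lie 621 bases apart on chromosome 15 in exons of Lncppara, and Mirlet7a-1, Mirlet7f-1 and Mirlet7d lie together on chromosome 13 in exons of 6720427I07Rik. Mirlet7c-1 lies 656 bases from Mir99a on chromosome 16 in an intron of Mir99ahg. Mirlet7e lies 94 bases from Mir99b and 367 bases from Mir125a on chromosome 17, over Spaca6. Mirlet7a-2 lies 5211 bases from Mir100 on chromosome 9. let-7a, let-7c and let-7f thus each sum more than 1 hairpin.

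Libraries held 1229834 to 14249087 miRNA reads, with the fewest in Cerebellum, SST and Purkinje (1229834 to 3378889) and the most in PV, Gad2 and Camk2a (6983992 to 14249087). Every let-7 guide had at least 811 reads in every library, which keeps the counting error of each guide low. miR-124, a neuronal miRNA, took 15.4% to 34.2% of reads in each group mean. miR-128, the other neuronal marker sought, averaged 2206 RPM (reads per 1000000 miRNA reads) in Purkinje cells, against 19150 RPM in Cerebellum. In PV, SST and Gad2 cells it averaged 1888, 2344 and 9122 RPM, and in Camk2a cells 153500 RPM, against 78480 RPM in Neocortex. Markers of other cells were mostly far lower in the cell types than in whole tissue. The 3 listed vascular markers found (of 4 sought) summed to 295 to 993 RPM in the 5 cell types, against 5810 to 8178 RPM in the whole tissues. The 6 blood and microglia markers summed to 11.4 to 66.1 RPM in the cell types, against 1786 to 4035 RPM in the whole tissues, and miR-142-3p was at 0 in both SST libraries. The 3 oligodendrocyte markers summed to 2740 to 3248 RPM in Purkinje cells and 3362 to 3563 RPM in Cerebellum. They summed only to 665 to 1217 RPM in the neocortical cell types, against 2069 to 3278 RPM in Neocortex. Most of the sum was miR-338-3p, with means of 2946 RPM in Purkinje cells and 3335 RPM in Cerebellum. miR-338-5p averaged 62.6 and 93.2 RPM in these groups, while miR-219-5p was higher in Purkinje cells, at 60.2 against 47.2 RPM. The 3 ependyma and choroid plexus markers found (of 5 sought) summed to 10.7 to 17.4 RPM in Purkinje cells and 1338 to 1827 RPM in Cerebellum. In the neocortex the sum of these markers was not lower in the cell types than in the tissue. They summed to 115 to 132 RPM in PV, 414 to 419 in SST, 94.1 to 115 in Gad2 and 66.3 to 91.4 in Camk2a cells. Neocortex had 65.6 to 96.0 RPM. The single markers went different ways. miR-204 averaged 7.55, 128, 20.0 and 67.3 RPM in PV, SST, Gad2 and Camk2a cells, against 58.4 RPM in Neocortex. In the same order miR-34c averaged 85.5, 238, 61.3 and 9.64 RPM, against 13.8 RPM in Neocortex. miR-34b-5p averaged 30.3, 51.4, 22.7 and 3.48 RPM, against 6.58 RPM in Neocortex. No mRNA was measured, so the cell types were not checked against Gad2, parvalbumin or similar genes. In bulk material, a change in the number of cells of a type cannot be told apart from a change in the RNA per cell.

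As a family the guides held a larger part of the miRNA pool in Cerebellum than in Purkinje cells and in Neocortex than in Camk2a, PV or SST cells, while Gad2 and Neocortex libraries overlapped. Their summed share of miRNA reads was 9.61% ± 0.20 in Purkinje cells, 20.7% ± 0.9 in Cerebellum, 6.89% ± 1.01 in PV cells, 7.36% ± 0.36 in SST cells, 12.7% ± 2.1 in Gad2 cells, 9.40% ± 0.83 in Camk2a cells and 16% ± 2.3 in Neocortex (mean ± SD). The Purkinje libraries stood at 9.83%, 9.57% and 9.43%, against 20.7%, 19.7% and 21.5% in Cerebellum, a ratio of 0.465 with no overlap. The Camk2a libraries stood at 8.70%, 10.3% and 9.17%, against 15.6%, 14.0% and 18.5% in Neocortex. The Gad2 libraries, at 13.1%, 10.5% and 14.6%, overlapped those of Neocortex, and the PV libraries, at 6.17% and 7.60%, overlapped those of SST, at 7.61% and 7.11%. Since the members were chosen with earlier results known, no p is given for the sum. The share also depends on what else is in the pool: miR-124, miR-29b and miR-9 are the 3 most abundant other names. With them left out of the total, the log2 ratio was -0.82 in place of -1.10 for Purkinje against Cerebellum, -0.53 in place of -0.89 for PV against Gad2, and 0.37 in place of -0.10 for PV against SST. For Gad2 against Neocortex it was -0.03 in place of -0.33 (22.9% of the rest in Gad2 cells and 23.5% in Neocortex), or -0.18 with TMM factors, which estimate a scale from the bulk of the names.

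**Figure D1:**
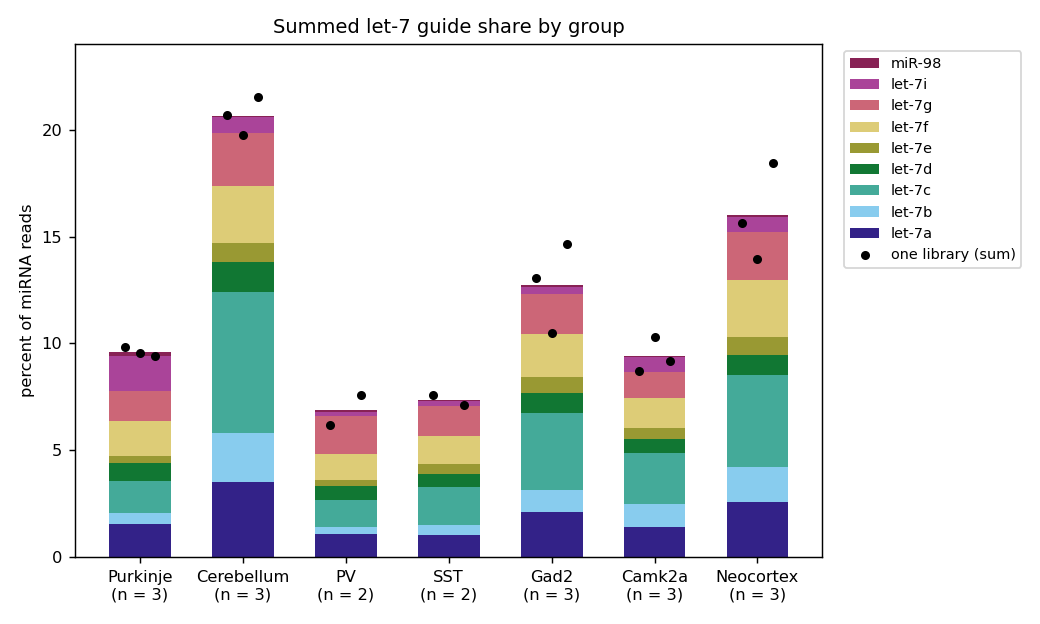
Percent of miRNA reads (vertical axis) taken by the 9 let-7 guides in each of the 7 groups (horizontal axis, n = libraries). Coloured segments are group means of the members and black points are the summed share of single libraries; Purkinje cells sit near 9.61% and Cerebellum near 20.7%.

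All 9 guides differed between the 7 groups (limma F test, adjusted p 2.68e-11 for let-7i to 0.000133 for let-7d), beside 87.2% of all names tested. They did not differ in the same way, and 4 patterns stood out in the levels. let-7a, let-7b, let-7c and let-7d were highest in Cerebellum, a step above Neocortex that passed the test. let-7e and let-7f were high in both Cerebellum and Neocortex, with no call between them. The line between these patterns follows which calls passed, and the difference between members was not tested. Of 13 alternatives, 8 kept the call of let-7a and 10 that of let-7b. let-7g, also with its highest mean in Cerebellum, was the most even member by a small margin. Its group means ranged over 2.06-fold, against 2.22-fold for let-7d and for let-7f, and these ranges were not tested against each other. let-7i and miR-98 were highest in Purkinje cells.

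let-7i had the widest range, 8.17-fold between the highest and lowest group mean. It had 15972, 15783 and 17443 RPM in Purkinje cells and 7678, 7518 and 7586 RPM in Cerebellum. It had 1821 and 2194 RPM in PV cells, 1760 and 2383 RPM in SST cells, 3227, 2542 and 4260 RPM in Gad2 cells, 6443, 7708 and 6809 RPM in Camk2a cells and 6693, 6304 and 8257 RPM in Neocortex. Every Purkinje library lay above every other library, and the 7 libraries of neocortical GABAergic cells lay below all the rest. From high to low the order of the means was Purkinje, Cerebellum, Neocortex, Camk2a, Gad2, SST and PV. Along this order, the steps below Purkinje, Camk2a and Gad2 passed the test (limma, adjusted p 9.53e-06, 4.28e-05 and 0.013), and the neighbours Cerebellum, Neocortex and Camk2a, and SST and PV, did not differ beyond their spread.

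miR-98, the least abundant member, shared the Purkinje peak but not the rest of that order. It had 2129, 2104 and 1939 RPM in Purkinje cells and 659, 561 and 586 RPM in Cerebellum. It had 706 and 670 RPM in PV cells, 675 and 549 RPM in SST cells, 807, 702 and 1033 RPM in Gad2 cells, 425, 584 and 465 RPM in Camk2a cells and 884, 823 and 1204 RPM in Neocortex. The Purkinje libraries were again above all others. The step from Purkinje to the next group, Neocortex, was the one neighbouring step that passed (log2 difference 1.10, limma, adjusted p = 1.6e-05).

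let-7c was the most abundant member over the 7 group means. It had 14274, 13265 and 17057 RPM in Purkinje cells and 65180, 62921 and 70157 RPM in Cerebellum. It had 10447 and 14323 RPM in PV cells, 18155 and 16697 RPM in SST cells, 41488, 29052 and 37721 RPM in Gad2 cells, 22463, 26172 and 23942 RPM in Camk2a cells and 48119, 35608 and 45058 RPM in Neocortex. Cerebellum stood clear at the top, and the Purkinje, PV and SST cells shared the bottom. The steps Cerebellum to Neocortex, Gad2 to Camk2a and Camk2a to SST passed (limma, adjusted p 0.00323, 0.0115 and 0.0454), while SST and Purkinje, and Purkinje and PV, overlapped.

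let-7b, whose hairpin neighbours one of the let-7c hairpins, had a similar order of levels, although its Gad2 and Camk2a cells overlapped where those of let-7c did not. It had 4911, 4377 and 6111 RPM in Purkinje cells, 22054, 21646 and 24816 RPM in Cerebellum, 3072 and 4009 RPM in PV cells and 5687 and 4517 RPM in SST cells. It had 11742, 8688 and 10394 RPM in Gad2 cells, 9829, 11925 and 10138 RPM in Camk2a cells and 21295, 12972 and 14262 RPM in Neocortex. Purkinje and SST cells overlapped near the bottom, Camk2a and Gad2 cells overlapped in the middle, and Neocortex replicate 1 lay far above its 2 fellows. let-7a ranged over 3.42-fold, with 15629 ± 1482 RPM in Purkinje cells, 35097 ± 1846 in Cerebellum, 10768 ± 2104 in PV, 10250 ± 128 in SST, 21318 ± 4369 in Gad2, 14118 ± 1157 in Camk2a and 25942 ± 5263 in Neocortex. let-7e ranged over 2.97-fold, with 3383 ± 192 RPM in Purkinje cells, 8903 ± 285 in Cerebellum, 3000 ± 645 in PV, 4680 ± 1760 in SST, 7632 ± 1446 in Gad2, 4997 ± 566 in Camk2a and 8485 ± 902 in Neocortex. The wide error of let-7e in SST cells comes from 1 library at 5924 and 1 at 3435 RPM. let-7d ranged over 2.22-fold, from 14188 ± 338 RPM in Cerebellum to 6401 ± 501 in SST cells, and only its first step, Cerebellum above Neocortex, passed.

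let-7g varied least, 2.06-fold between group means. It had 13885, 14139 and 13245 RPM in Purkinje cells and 25231, 23911 and 25312 RPM in Cerebellum. It had 16873 and 19144 RPM in PV cells, 13221 and 15211 RPM in SST cells, 18131, 15890 and 22235 RPM in Gad2 cells, 11227, 13282 and 11687 RPM in Camk2a cells and 17799, 20445 and 29302 RPM in Neocortex. No neighbouring step of let-7g passed the limma test, and 5 of its 6 neighbouring pairs overlapped. let-7f averaged 16441 ± 2025 RPM in Purkinje cells, 26417 ± 1135 in Cerebellum, 11982 ± 415 in PV, 12868 ± 1080 in SST, 20029 ± 4242 in Gad2, 13875 ± 1111 in Camk2a and 26634 ± 5828 in Neocortex. Its 2 highest groups, Cerebellum and Neocortex, were not separable (limma, adjusted p = 0.969). Over all members, 15 of 54 neighbouring steps passed and 18 of 54 did not overlap. DESeq2 on recovered reads passed 24.

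**Figure D2:**
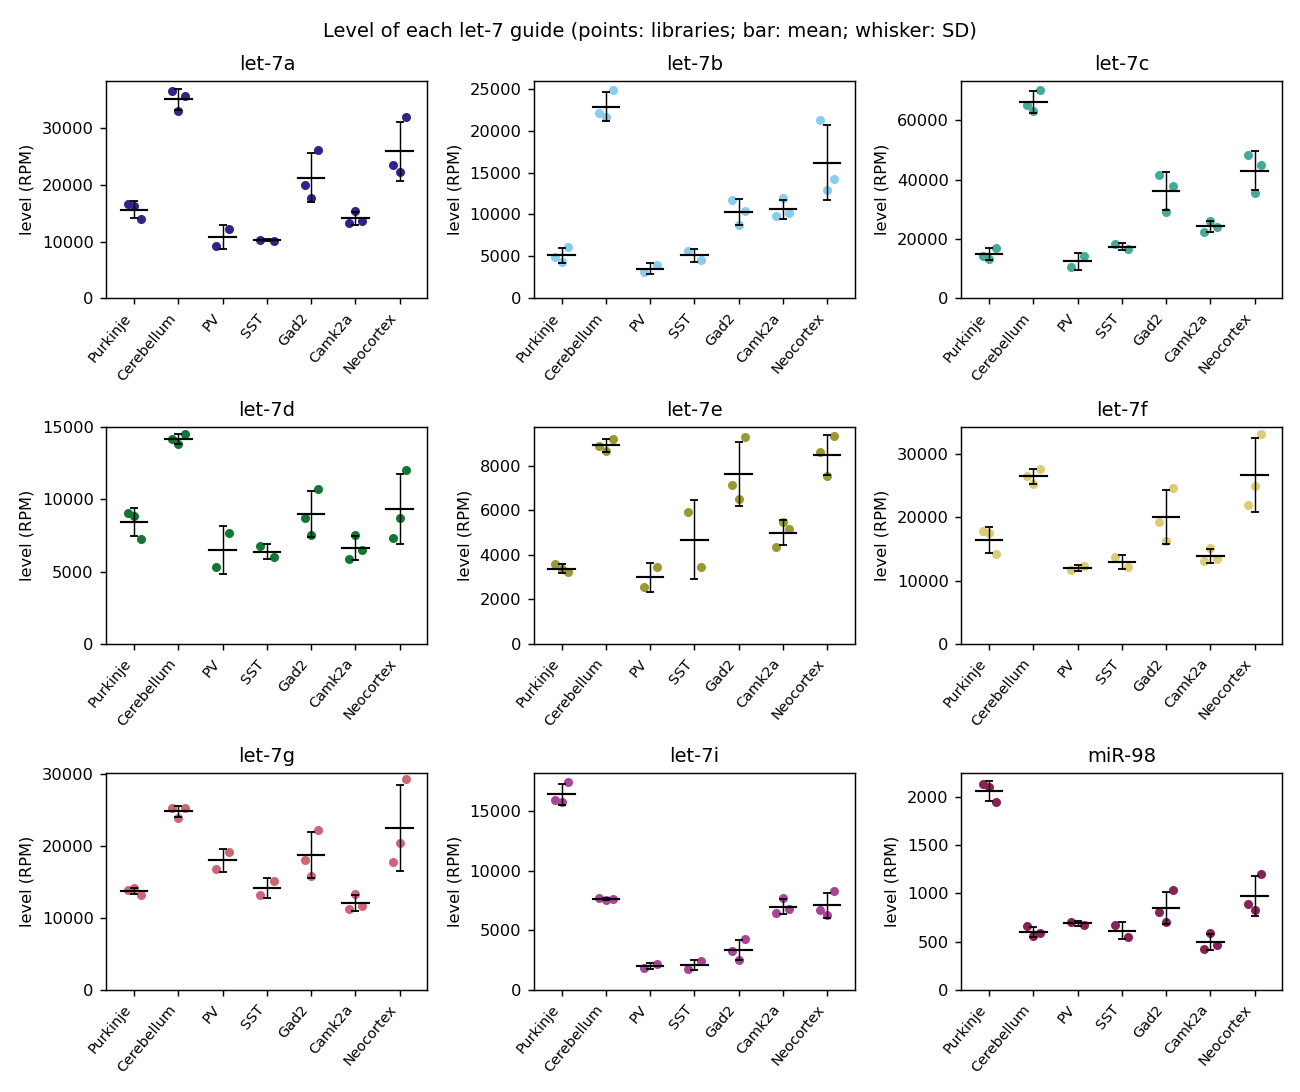
Level of each let-7 guide in RPM (vertical axes, each from 0) in the 7 groups (horizontal axes); points are libraries, bars means and whiskers SD. let-7i and miR-98 peak in Purkinje cells, while let-7c reaches 66086 RPM in Cerebellum and 14865 RPM in Purkinje cells.

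The make-up of the let-7 pool changed with the cell type. let-7c was the leading member in 14 of 19 libraries, namely all those of Cerebellum, SST, Gad2, Camk2a and Neocortex. It took 32.0% ± 0.5 of let-7 guide reads in Cerebellum, 23.7% ± 0.3 in SST cells, 28.4% ± 3.1 in Gad2 cells, 25.8% ± 0.4 in Camk2a cells and 26.9% ± 3.4 in Neocortex. In Purkinje cells no member led: let-7f held 17.1% ± 1.9, let-7i 17.1% ± 1.2, let-7a 16.3% ± 1.3 and let-7c 15.5% ± 2.3. let-7f was the leading name in Purkinje replicates 1 and 2 and let-7i in replicate 3. In PV cells let-7g led both libraries, at 27.3% and 25.2% of the pool, above let-7c at 16.9% and 18.8%. let-7i was 16.3% to 18.5% of the pool in Purkinje libraries and 7.41% to 7.47% in Camk2a libraries, but only 2.31% to 4.52% in all others. The ratio of let-7c to let-7i reads, which needs no common scale, was 0.904 ± 0.069 in Purkinje cells, against 8.70 ± 0.48 in Cerebellum. It was 11.0 ± 2.0 in Gad2 cells, 3.47 ± 0.06 in Camk2a cells and 6.10 ± 0.95 in Neocortex. The ratio of let-7g to let-7c was 1.34 and 1.62 in PV cells, against 0.437 to 0.589 in Gad2 cells. These shares and ratios are descriptions and were not tested.

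**Figure D3:**
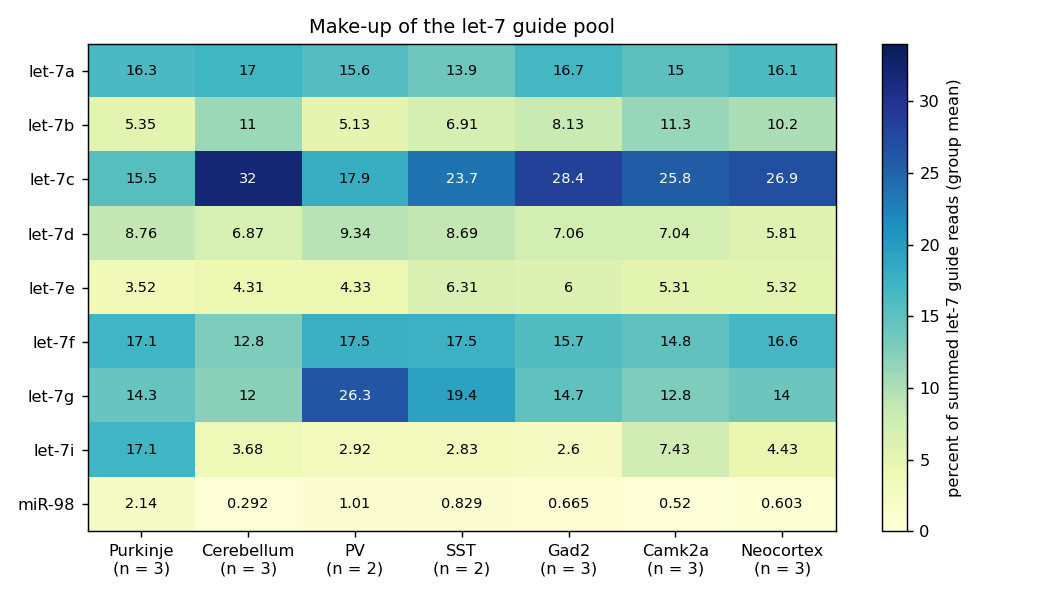
Mean percent of the summed let-7 guide reads (colour and printed number) held by each member (rows) in each group (columns). let-7c leads at 32.0% in Cerebellum, let-7g at 26.3% in PV cells, and let-7i reaches 17.1% in Purkinje cells.

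Purkinje cells differed from whole Cerebellum in every let-7 guide. let-7i and miR-98 rose and the other 7 fell. let-7i was 2.16-fold higher (log2 change 1.11 ± 0.17 SE, limma, adjusted p = 9.53e-06) and miR-98 was 3.42-fold higher (1.78 ± 0.18, adjusted p = 2.03e-08). let-7c was 4.47-fold lower (-2.16 ± 0.17, adjusted p = 4.7e-10) and let-7b 4.48-fold lower (-2.16 ± 0.19, adjusted p = 2.97e-09). let-7e was 2.63-fold, let-7a 2.25-fold, let-7g 1.80-fold, let-7d 1.69-fold and let-7f 1.61-fold lower. No library of the one group overlapped the other in any of the 9. These 9 calls stand beside 68.6% of all names called, the 2 higher members beside 31.2% called higher and the 7 lower members beside 37.4% called lower. The median change was -0.85 for the guides and -0.19 for all names on the log2 scale. With TMM factors the median of all names was 0, and the same counts of members passed. edgeR on recovered reads left out let-7f (adjusted p = 0.053). Purkinje libraries held 37.0 to 66.1 RPM of blood and microglia markers, against 2474 to 2964 RPM in Cerebellum, and the part of such cells in these differences was not tested.

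Cerebellum exceeded Neocortex in 4 guides, let-7a (1.37-fold), let-7b (1.44-fold), let-7c (1.55-fold) and let-7d (1.55-fold), and was 1.59-fold lower in miR-98. The change of let-7c was 0.63 ± 0.17 (log2 ± SE, limma, adjusted p = 0.00323) and that of miR-98 was -0.67 ± 0.18 (adjusted p = 0.00307). let-7e, let-7f, let-7g and let-7i did not pass, with changes of 0.07, 0.01, 0.17 and 0.11 on the log2 scale. The 4 higher members stand beside 19.5% of all names called higher and the 1 lower member beside 36% called lower. The median was 0.17 for the guides and -0.40 for all names. Only let-7c and let-7d passed as higher without Cerebellum replicate 3 or without Neocortex replicate 2. let-7a also failed without Cerebellum replicate 1, without Neocortex replicate 1 and with the compared groups alone (adjusted p 0.0779, 0.0881 and 0.0591), and let-7b without Neocortex replicate 3 (adjusted p = 0.0746). DESeq2, whose size factors moved the median of all names to -0.05 and the share of higher calls to 46.8% from 35.2%, called 6 guides higher and did not call miR-98 (-0.37, adjusted p = 0.062).

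Camk2a cells, the excitatory neurons, held less of 8 guides than whole Neocortex, and let-7i was the exception. let-7f was 1.89-fold lower (-0.92 ± 0.17 log2 ± SE, limma, adjusted p = 0.000198) and miR-98 was 1.96-fold lower (-0.97 ± 0.18, adjusted p = 0.000177). let-7g was 1.83-fold, let-7a 1.82-fold, let-7c 1.76-fold, let-7e 1.70-fold, let-7b 1.49-fold and let-7d 1.39-fold lower. The libraries of the groups did not overlap for 7 of these 8, and overlapped for let-7d (adjusted p = 0.0452). let-7i had 6987 ± 651 RPM in Camk2a cells and 7085 ± 1034 RPM in Neocortex, a log2 change of -0.01 with a 95% interval of -0.38 to 0.35. The 8 members stand beside 28% of all names called lower, with medians of -0.82 for the guides and -0.25 for all names. TMM factors brought the median of all names to 0.03 and the share of higher calls to 55.7% from 37.6%. The guides called lower then numbered 5, let-7a, let-7c, let-7f, let-7g and miR-98, and let-7i stood at 0.29 (adjusted p = 0.199). edgeR and DESeq2, with 52.2% and 49.8% of calls higher, called 6. let-7b did not pass without Neocortex replicate 1 or Camk2a replicate 1 or 3, nor let-7d without Camk2a replicate 1 or 3 or Neocortex replicate 2 or 3, or with the compared groups alone (adjusted p = 0.093). Vascular markers summed to 934 to 993 RPM in Camk2a cells, against 7841 to 8178 RPM in Neocortex, and their part in the differences was not tested.

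Gad2 cells differed from Neocortex in few guides. let-7i was 2.15-fold lower (-1.11 ± 0.17 log2 ± SE, limma, adjusted p = 2.62e-05), with every Gad2 library below every Neocortex library, and let-7b was 1.55-fold lower (-0.63 ± 0.19, adjusted p = 0.00925). let-7f, at -0.41 (adjusted p = 0.0544), lay just outside the threshold, and the other 6 had changes of -0.28 to -0.04. The 2 lower members stand beside 24.3% of names called lower, near the background. let-7b did not pass without Gad2 replicate 2, without Neocortex replicate 1 or with TMM factors (adjusted p 0.055, 0.0708 and 0.0849). Without Gad2 replicate 3, the library highest in 7 of the 9 guides, let-7a and let-7f passed too, for 4 in all.

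Set against each other, Gad2 cells held more of 6 guides than Camk2a cells and less of let-7i. miR-98 was 1.72-fold higher (0.78 ± 0.18 log2 ± SE, limma, adjusted p = 0.00141) and let-7g 1.54-fold higher (0.63 ± 0.17, adjusted p = 0.00585). let-7e was 1.52-fold, let-7a 1.49-fold, let-7c 1.48-fold and let-7f 1.43-fold higher. let-7i was 2.13-fold lower (-1.09 ± 0.17, adjusted p = 4.28e-05). let-7b had a change of -0.05 and let-7d one of 0.43 (adjusted p = 0.0751). The 6 higher members stand beside 21.5% of names called higher and let-7i beside 16.7% called lower. With TMM factors, where the share of higher calls was 44.5% in place of 56.3%, only let-7g and miR-98 stayed higher, and edgeR also called 2 and DESeq2 3. Without Gad2 replicate 3 the count was 3. let-7i was called lower in each of these. The strain background and the number of pooled tissues differ between these groups and cannot be told apart from the cell type.

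**Figure D4:**
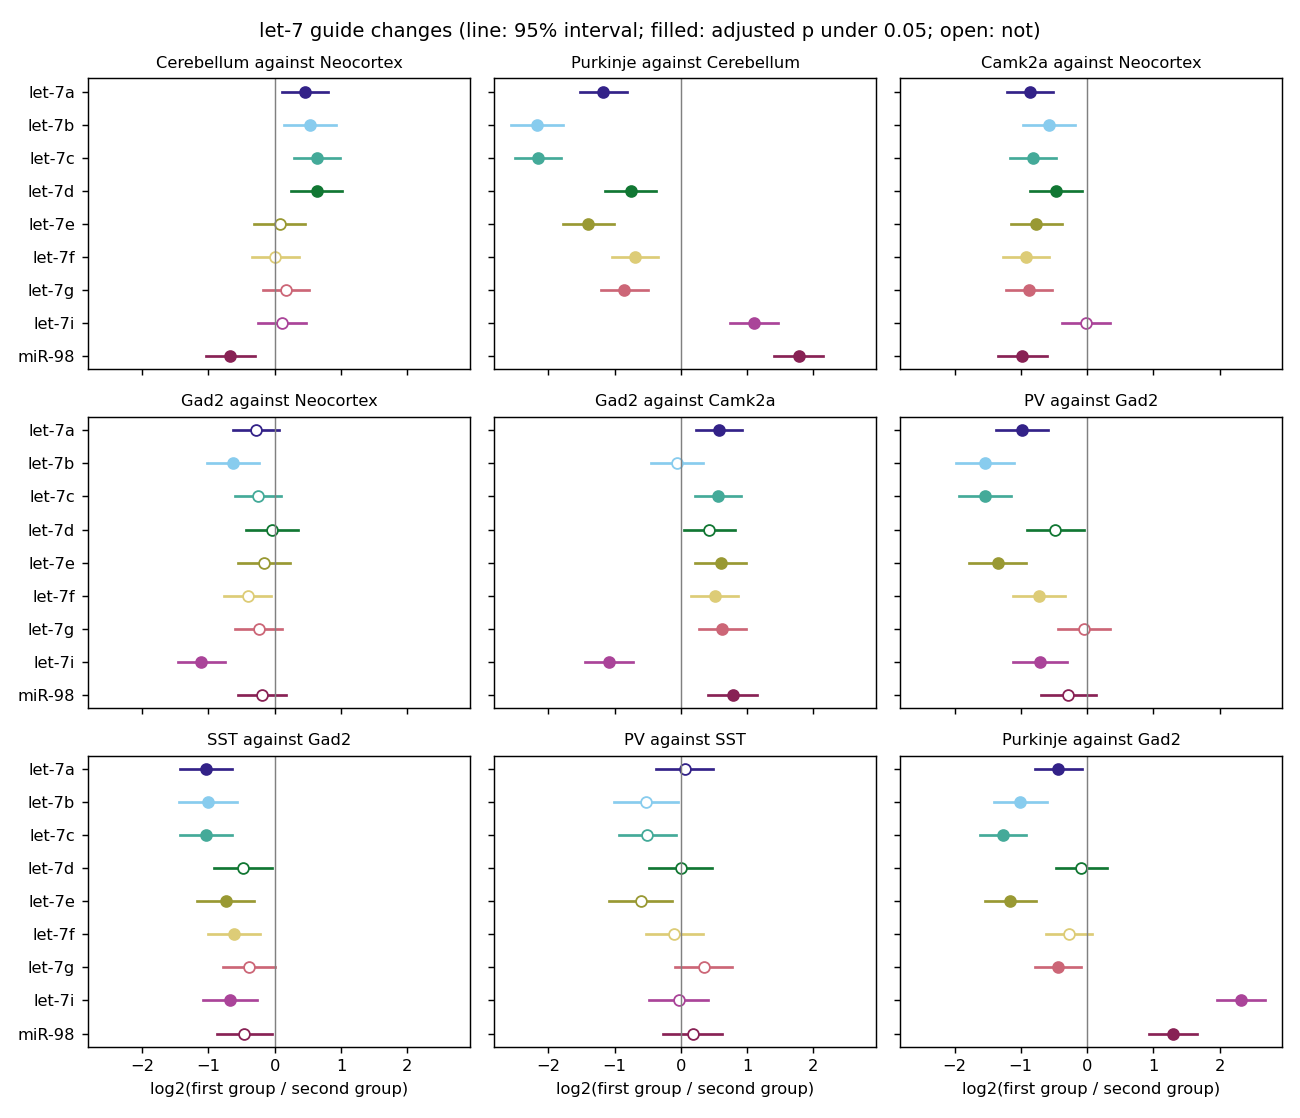
Log2 change of each let-7 guide (horizontal axes) in the 9 comparisons, first group over second; lines are 95% intervals, filled points have an adjusted p under 0.05 and open points do not. let-7i and miR-98 lie right of 0 in both Purkinje comparisons, at 1.11 and 1.78 against Cerebellum, where let-7b and let-7c lie furthest left.

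PV cells, a subset of the GABAergic cells that the Gad2 label covers, had less of 6 guides than Gad2 cells. let-7c was 2.92-fold lower (-1.54 ± 0.19 log2 ± SE, limma, adjusted p = 2.47e-06), let-7b 2.91-fold, let-7e 2.54-fold, let-7a 1.97-fold, let-7f 1.65-fold and let-7i 1.64-fold lower. let-7g stood out with a change of -0.05 and a 95% interval of -0.44 to 0.34. let-7d and miR-98 had changes of -0.48 and -0.28 and did not pass. The 6 members stand beside 14.6% of names called lower, in a comparison with 21.3% called and 6.7% called higher, with medians of -0.72 for the guides and 0.00 for all names. The share of higher calls was 46% with DESeq2 and 31.5% here, and 6 guides were lower in both. Without PV replicate 1, let-7f and let-7i did not pass (adjusted p 0.0739 and 0.165), and without Gad2 replicate 3 let-7i did not (adjusted p = 0.0574).

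SST cells also had less of the same 6 members, let-7a, let-7b, let-7c, let-7e, let-7f and let-7i, than Gad2 cells. let-7a and let-7c were 2.05-fold lower (-1.04 ± 0.19 log2 ± SE each, limma, adjusted p 0.000437 and 0.000432) and let-7b 2.01-fold lower. let-7e was 1.67-fold, let-7i 1.60-fold and let-7f 1.54-fold lower. The 6 members stand beside 5.94% of names called lower, with medians of -0.68 for the guides and 0.42 for all names. TMM factors moved that median to 0 and the share of higher calls to 39.1% from 78.5% (43% with edgeR, 45% with DESeq2), and all 9 guides were then called lower with each of these 3. Without Gad2 replicate 3 only let-7a, let-7b and let-7c passed. let-7e and let-7f were lost without SST replicate 2, and let-7f and let-7i without SST replicate 1. PV and SST cells share the Gad2 libraries in these 2 comparisons.

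Between PV and SST cells no guide passed with limma, where 29.1% of all names did (4.02% higher and 25.1% lower), and 3 guides, let-7b, let-7c and let-7e, had an unadjusted p under 0.05, all lower in PV. Their changes were -0.53, -0.51 and -0.61 (adjusted p 0.0951, 0.0694 and 0.0507). The answer turned on the scale. The median of all names was -0.42, and 13.8% of calls were higher in PV. With TMM factors the median was 0.00, 41.7% of calls were higher, and let-7g (0.81, adjusted p = 0.00796) and miR-98 (0.65, adjusted p = 0.0342) passed as higher in PV. edgeR (36.6% of calls higher) also called 2 guides higher and DESeq2 (42.6%) 4, with 4 and 6 at an unadjusted p under 0.05. let-7e passed as lower without PV replicate 2 (-0.83), where let-7c passed too, and without SST replicate 2 (-0.998). Relative to its own family, let-7g was 27.3% and 25.2% of the pool in PV cells and 17.4% and 21.4% in SST cells.

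Purkinje cells and neocortical Gad2 cells are both GABAergic. let-7i was 5.01-fold higher in Purkinje cells (2.33 ± 0.17 log2 ± SE, limma, adjusted p = 4.36e-10) and miR-98 2.46-fold higher (1.30 ± 0.18, adjusted p = 2.47e-06). let-7c was 2.41-fold, let-7e 2.23-fold and let-7b 2.01-fold lower, and let-7a and let-7g 1.35-fold lower each. let-7d and let-7f overlapped between the groups, with changes of -0.09 and -0.27. The 2 higher members stand beside 20.5% of names called higher and the 5 lower ones beside 34.5% called lower. let-7a and let-7g no longer passed with TMM factors, edgeR or DESeq2, without Purkinje replicate 2 or 3, or without Gad2 replicate 1 or 3, which left 3 lower members each time. let-7g was also lost without Purkinje replicate 1 (adjusted p = 0.0667) and let-7a with the compared groups alone (adjusted p = 0.053). The share of higher calls was 37.3% here, 47.6% with edgeR and 50.7% with DESeq2. Brain region, strain and the number of pooled tissues differ as well and cannot be told apart from the cell type. The oligodendrocyte markers summed to 2740 to 3248 RPM in Purkinje cells, against 679 to 731 RPM in Gad2 cells, and their part in these differences was not tested.

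The distance of each GABAergic cell type from its own tissue was compared directly, as the change of Purkinje against Cerebellum minus the change of Gad2 against Neocortex, which share no library. The difference passed for 8 of 9 guides, with 45.8% of all names called. It takes in the step between the tissues as well as the step between the cell types. For let-7d the log2 change was 0.63 for Cerebellum against Neocortex and -0.09 for Purkinje against Gad2. let-7i moved in opposite directions, by 1.11 in Purkinje cells and by -1.11 in Gad2 cells, a difference of 2.22 ± 0.24 (log2 ± SE, limma, adjusted p = 2.48e-07). miR-98 had 1.78 and -0.19, a difference of 1.97 ± 0.25 (adjusted p = 1.4e-06). let-7c had -2.16 and -0.25, a difference of -1.90 ± 0.24 (adjusted p = 1.13e-06), and let-7b, let-7e and let-7a had differences of -1.53, -1.23 and -0.89. let-7d (-0.72, adjusted p = 0.0302) and let-7g (-0.61, adjusted p = 0.0422) passed narrowly and were lost with TMM factors and with edgeR. let-7d also failed without any 1 of 5 single libraries, and let-7g without 10, with adjusted p of up to 0.0906 and 0.126. let-7f, at -0.28 (adjusted p = 0.376), did not pass.

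Members from neighbouring hairpins sometimes moved together and sometimes did not. Over the 7 group means, which share libraries and a common total, let-7b and let-7c had a Pearson r of 0.97 and let-7a and let-7f, both partly from the chromosome 13 cluster, an r of 0.97. Each of these pairs differs at 1 base, where reads could be split between members, and let-7c and let-7e, which share no cluster, also had an r of 0.97. let-7f and miR-98, 785 bases apart on X at one of the let-7f hairpins, had an r of 0.16. let-7i had r values of 0.17 to 0.50 with let-7a to let-7f, and miR-98 of -0.25 to 0.16, while let-7a to let-7f had 0.73 to 0.97 among themselves. These values describe 7 points and carry no test.

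The miR-99, miR-100 and miR-125 guides come from the hairpins beside let-7c, let-7a and let-7e. Against Cerebellum, Purkinje cells had 4 of these 5 partners lower and 1 higher, beside the same shares of all names as above. miR-99a, the neighbour of let-7c on chromosome 16, averaged 1102 ± 179 RPM in Purkinje cells and 8397 ± 753 RPM in Cerebellum, 7.66-fold lower (limma, adjusted p = 2.06e-12). Its r with let-7c over group means was 0.91. let-7e, miR-99b and miR-125a-5p likewise all fell in Purkinje cells, the partners by 2.19-fold and 5.70-fold (limma, adjusted p 1.6e-05 and 4.38e-09). Cerebellum against Neocortex gave another picture for both clusters. let-7c was higher there, while miR-99a averaged 8397 ± 753 RPM in Cerebellum and 11023 ± 1699 RPM in Neocortex, 1.31-fold lower (limma, adjusted p = 0.0486). The miR-99a libraries of these groups overlapped, and its log2 change of -0.38 lay near the median of all names, -0.40. miR-99b, 94 bases from let-7e, averaged 2489 ± 148 RPM in Cerebellum and 533 ± 107 RPM in Neocortex, 4.73-fold higher (limma, adjusted p = 2.59e-09). miR-125a-5p averaged 8988 ± 456 RPM in Cerebellum and 1770 ± 336 RPM in Neocortex, 5.14-fold higher (limma, adjusted p = 2.17e-08). let-7e itself had 8903 ± 285 RPM in Cerebellum and 8485 ± 902 RPM in Neocortex, 1.05-fold (limma, adjusted p = 0.753). Its r was 0.22 with miR-99b and 0.38 with miR-125a-5p. miR-125b-5p, from a pair of hairpins that lie farther from let-7a and let-7c, went the other way in Purkinje cells, with 17528 ± 3914 RPM against 8825 ± 1077 RPM in Cerebellum, 1.96-fold higher (limma, adjusted p = 0.00201). miR-100 averaged 204 ± 1.44 RPM in PV cells and 977 ± 55 RPM in Gad2 cells, 4.79-fold lower (limma, adjusted p = 2.87e-10).

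The 12 star names of the family were rare. They summed to 204 ± 78 RPM in Purkinje cells, against 489 ± 89 RPM in Cerebellum, and to 172 to 220 RPM in the means of the other 5 groups. let-7a-1* and let-7c-2* had equal reads in 17 of 19 libraries and differed by at most 2 reads in the others, so they count 1 measurement 2 times. The 7 rarest averaged at most 2.66 RPM over the groups, near the floor of 3 reads, which stood at 0.211 to 2.44 RPM. In Purkinje cells against Cerebellum 9 of the 12 were called lower, beside 37.4% of all names. Of these 9, 6 were among the rarest, with 0 to 5 reads in each Purkinje library, and the other 3 were let-7e* and the near-identical pair, so the count rests on few separate measurements. let-7a-1* averaged 15.9 ± 10.3 RPM in Purkinje cells and 113 ± 27 RPM in Cerebellum, and let-7c-2* had nearly the same values. let-7e* averaged 28.3 ± 3.6 RPM in Purkinje cells and 71.5 ± 12.7 RPM in Cerebellum. let-7d*, the most abundant star, averaged 117 ± 46 RPM in Purkinje cells and 150 ± 14 RPM in Cerebellum and did not pass (limma, adjusted p = 0.131).

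The star of let-7i followed its guide in some comparisons and not in others. let-7i* had 22.8, 23.2 and 11.0 RPM (47, 58 and 37 reads) in Purkinje cells, against 30.9, 19.7 and 17.8 RPM (38, 65 and 32 reads) in Cerebellum. The groups overlapped and the change was -0.30 ± 0.50 (log2 ± SE, limma, adjusted p = 0.613), where the guide had risen 2.16-fold. Against Gad2 cells, with 1.54, 1.35 and 0.430 RPM, let-7i* was called higher in Purkinje cells (log2 change 4.06 ± 0.50, limma, adjusted p = 6.73e-07), on 22, 10 and 3 reads in the Gad2 libraries. Per 100 guide reads there were 0.118 ± 0.047 let-7i* reads in Purkinje cells and 0.300 ± 0.090 in Cerebellum. There were 0.235 ± 0.029 in PV cells, 0.260 ± 0.198 in SST cells, 0.0370 ± 0.0235 in Gad2 cells, 0.0793 ± 0.0193 in Camk2a cells and 0.0324 ± 0.0150 in Neocortex. let-7i* was also higher in Cerebellum than in Neocortex, 22.8 ± 7.1 against 2.39 ± 1.46 RPM (limma, adjusted p = 1.18e-05), although the guide differed by only 1.08-fold and did not pass. The Neocortex libraries held 3, 7 and 44 let-7i* reads. This was not particular to let-7i*: 6 of the 12 star names were called higher there and 0 lower, beside 19.5% of all names called higher. The near-identical let-7a-1* and let-7c-2* were among the 6, and so were let-7g* and miR-98*, which had few reads. let-7g* had 2, 3 and 2 reads in Cerebellum and 0, 0 and 1 in Neocortex. miR-98* had 5, 7 and 2 reads in Cerebellum and 1, 2 and 6 in Neocortex. This count too rests on few separate measurements. The median change was 1.28 for the stars and -0.40 for all names. In Gad2 against Camk2a cells star and guide were both lower (-2.35 ± 0.50 and -1.09 ± 0.17 log2 ± SE, limma, adjusted p 0.000853 and 4.28e-05). Against Gad2 cells, the star was higher in PV (2.15, adjusted p = 0.00728, limma) and in SST (2.09, adjusted p = 0.00952, limma), on 104 and 16 reads, where the guide was lower.

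**Figure D5:**
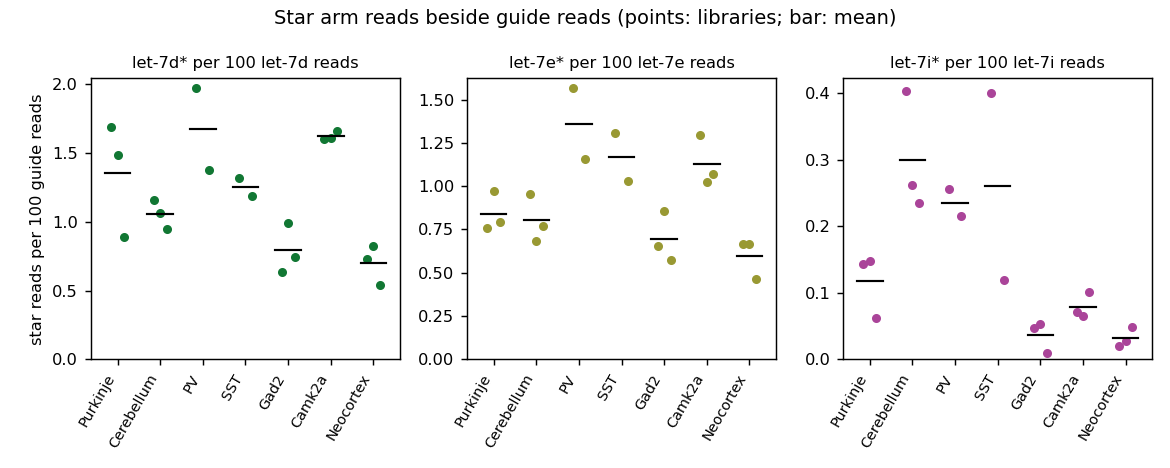
Star reads per 100 reads of the matching guide (vertical axes, each from 0) for let-7d, let-7e and let-7i in the 7 groups (horizontal axes); points are libraries and bars means. For let-7i the Purkinje mean is 0.118 and the Cerebellum mean 0.300.

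Among 162 other names with a mean of at least 100 RPM, the closest patterns over the 7 group means differed between members. For the summed guides they were miR-9* (r = 0.88), miR-129-1-3p (0.83) and miR-124* (0.81). For let-7i they were miR-151-5p (0.91), miR-340-5p (0.84) and miR-376c (0.77). miR-151-5p averaged 3767 ± 288 RPM in Purkinje cells, 1597 ± 186 in Cerebellum and 414 ± 6 in Gad2 cells. For miR-98 the closest were miR-1983 (0.92), miR-181c* (0.87) and miR-138-2* (0.79), with miR-1983 at 631 ± 96 RPM in Purkinje cells and 69.5 ± 9.6 RPM in Cerebellum. miR-99a was the closest to let-7e (0.96) and let-7c (0.91), and miR-135a to let-7b (0.92). For let-7d the closest was miR-129-1-3p (0.80). For let-7g miR-26b (0.82) and the vascular marker miR-143 (0.81) were nearly level, and for let-7f miR-9* (0.91) was followed by the blood marker miR-451 (0.83). miR-143 averaged 18.1 to 94.5 RPM in the cell types, against 1759 RPM in Cerebellum and 4369 RPM in Neocortex, and miR-451 10.0 to 40.2 RPM, against 2108 and 2431 RPM in the same tissues. The part of such cells in the levels of let-7f and let-7g was not tested. Each r rests on 7 points that share libraries and is a description.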

How the data were processed

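Small RNAs bound to Ago2 were sequenced on an Illumina Genome Analyzer II from 19 libraries in 7 groups, assigned by their titles. Reads were mapped with Bowtie to mm9, per the submitters' processing notes, and the version and mismatch setting are not given in the sources used here. The deposited signal of each of 528 names is given, per the file headers, per 1000000 reads. Each column adds up to 10000000 instead, and dividing by 10 gave RPM. Each value was a whole number of reads times a constant of its library (100% of values, within 0.1 of a step), which gave reads and depth. The floor, 3 reads, was 0.211 to 2.44 RPM and covers counting error only, since PCR copies were not told apart.

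limma 3.58.1 (R 4.3.3) was fitted with a trend to log2(value + 1) on the deposited scale, 1 mean per group, after names that reached a value of 1 in fewer than 2 libraries were dropped, leaving 522. Benjamini-Hochberg adjustment ran over all names, separately for each of 9 comparisons and each other pair of groups in the order of levels. The F test and the difference of differences were adjusted in the same way. Calls were made below an adjusted p of 0.05. Folds were back-transformed from fitted log2 changes. Alternatives used TMM factors, edgeR 4.0.16 and DESeq2 1.42.0 on the recovered reads, a pseudocount of 10, no filter, the compared groups alone, a replicate block and each library left out. Titles number the replicates without saying that these are separate animals, so p-values measure the spread between libraries. Replicates differed by more than counting error (chi-square per degree of freedom 34.2 to 693 over 17 pairs). The scripts were tested on simulated data. For the limma step only names below 1% of reads were changed there, so a guide as abundant as let-7c (6.61% in Cerebellum) was not covered. All 9 members are named, with at most 5 names of each other list and, for each pattern, up to 3 like names. Members and lists were chosen with earlier results of these data known.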

Additional observations from a re-analysis of the deposited data

Results flagged for a closer look

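The change of Purkinje against Cerebellum differed from that of Gad2 against Neocortex for 8 of the 9 guides, tested as a difference of differences with limma and adjusted over all names. It was 2.22 on the log2 scale for let-7i and 1.97 for miR-98. It was -0.89 for let-7a, -1.53 for let-7b, -1.90 for let-7c, -0.72 for let-7d, -1.23 for let-7e and -0.61 for let-7g. The pairs of groups share no library, but they come from different brain regions. Each cell type also differs from its tissue in antibody and pooling, and the strain differs within the Gad2 pair. Region, antibody, pooling and strain cannot be told apart from cell type. No group has more than 3 libraries, so none was tested for a library far from the others, and libraries were left out in turn.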

How the results depend on the processing

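Over all members, comparisons and alternatives, 1016 of the values kept their direction and side of the threshold, 91 lost the call, 30 gained it and 42 changed sign. The cause of these changes was not tested. Calls lower in Cerebellum than Neocortex numbered 0 with DESeq2 (1 at an unadjusted p under 0.05, 1 with edgeR). With TMM factors the calls were 5 lower for Camk2a against Neocortex, 1 lower for Gad2 against Neocortex, 2 higher for Gad2 against Camk2a, 2 higher for PV against SST and 3 lower for Purkinje against Gad2. edgeR gave 2, 2 and 3 for the last 3 of these and DESeq2 3, 4 and 3. A pseudocount of 10 gave 1 call lower in PV than SST, and DESeq2 called 24 neighbouring steps. With libraries left out in turn, counts ran from 2 to 4 (Cerebellum against Neocortex, higher), 1 to 4 (Gad2 against Neocortex, lower), 3 to 7 (Gad2 against Camk2a, higher), 3 to 6 (SST against Gad2, lower), 0 to 2 (PV against SST, lower) and 3 to 5 (Purkinje against Gad2, lower).

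The log2 ratio of the summed share was 0.58 for Cerebellum against Neocortex, -0.82 for Purkinje against Cerebellum, -0.53 for PV against Gad2, 0.37 for PV against SST, -0.03 for Gad2 against Neocortex, -0.21 for Purkinje against Gad2 and 0.67 for Gad2 against Camk2a without the 3 most abundant other names. With TMM factors it was -0.81 for Purkinje against Cerebellum, -0.46 for Camk2a against Neocortex, -1.24 for SST against Gad2, 0.38 for PV against SST, -0.18 for Gad2 against Neocortex, -0.22 for Purkinje against Gad2 and 0.28 for Gad2 against Camk2a. The last 3 were -0.33, -0.41 and 0.44 on the deposited scale with all names.

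The values that changed sign had not passed the limma test. With TMM factors, edgeR and DESeq2 in turn they were 0.29, 0.29 and 0.23 (let-7i, Camk2a against Neocortex), 0.12, 0.10 and 0.025 (let-7d, Gad2 against Neocortex) and 0.093, 0.091 and 0.17 (let-7d, Purkinje against Gad2). For PV against SST they were 0.47, 0.50 and 0.55 (let-7d), 0.37, 0.37 and 0.43 (let-7f) and 0.44, 0.42 and 0.48 (let-7i). DESeq2 alone gave 0.0034 for let-7b and 0.037 for let-7c there, and 0.045 for let-7g in PV against Gad2. With libraries left out in turn, values that crossed 0 ran from -0.0087 to 0.15 (let-7e) and -0.12 to 0.18 (let-7f) for Cerebellum against Neocortex, -0.094 to 0.10 (let-7i, Camk2a against Neocortex), -0.20 to 0.16 (let-7d, Gad2 against Neocortex), -0.16 to 0.061 (let-7b, Gad2 against Camk2a), -0.16 to 0.083 (let-7g, PV against Gad2) and -0.21 to 0.048 (let-7d, Purkinje against Gad2). For PV against SST they ran from -0.14 to 0.26 (let-7a), -0.27 to 0.26 (let-7d) and -0.25 to 0.18 (let-7i).

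Replicate numbers showed no pairing of the samples (correlations of deviations -0.234 to 0.181, never above 0.1 in every pair of a comparison). Each comparison had only 2 or 3 such pairs, too few to say that the samples were not paired. With the number as a replicate block, 1 guide was lower in PV than SST (let-7e, -0.61), let-7f passed in Gad2 against Neocortex, and let-7g stood at 0.013 in PV against Gad2.

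Depth limits the star arms more than the guides: let-7i* had as few as 16 reads summed over a group (SST), and every guide at least 811 in each library.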
